A study of Danio rerio with 4 samples.

Results

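The broadest stretches of 5-hydroxymethylcytosine (5hmC) enrichment in control zebrafish were 2719 peaks of at least 1500 bp, out of 226591 control peaks on chromosomes 1 to 25. They were chosen by one measured value, the width of the peak in the control list, and their width is therefore a description and not a result. They made up 1.20% of the control peaks and 4.76% of all bases in control peaks, or 5.19 Mb in all. The tet2/3 morpholino embryos had been injected with morpholinos against both tet2 and tet3, and the control embryos with a control morpholino. Both groups were taken at 48 hours after fertilisation, and each had 1 pull-down and 1 input library. The labels give the tissue as embryo, while the extraction protocol describes DNA from heads. Neither the morpholino doses, nor how many animals were pooled, nor a measure of the knockdown is given in the sources used here.

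5hmC is made when TET enzymes oxidise 5-methylcytosine, and it is a step on the way to unmethylated cytosine. In vertebrates it is known from enhancers and from the bodies of active genes, where it can stretch over long runs of DNA rather than single sites. In zebrafish, Tet2 and Tet3 are known as the main enzymes that make it during embryonic development. A morpholino is an antisense oligonucleotide that blocks translation or splicing of its target transcript, so it lowers an enzyme without changing its gene.

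A peak here is an interval in which the antibody pull-down (hMeDIP) exceeded its background, as called by the authors. Its fold enrichment is the authors' value for the pileup of fragments at the summit over the local background, with a constant added to both. That constant lowers the fold more where the tested background is low. The tested background differs between the lists, so folds of the lists are not on the same scale. The summit is the base with the highest pileup. Each group had a single pull-down, so differences between the groups have no replicate check and carry no p-value. Bracketed ranges are 95% Wilson intervals for shares and Newcombe intervals for differences. They describe counting error alone, and peaks that lie side by side share their surroundings.

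The lists differ in ways that touch every result below. The tet2/3 morpholino list held 80550 peaks, and the control list 226591. The shortest interval was 132 bp in the tet2/3 morpholino list and 222 bp in the control list. A Poisson background was worked out for each peak from its fold and its p-value. The lowest percentile of these backgrounds was 5.94 fragments for the tet2/3 morpholino pull-down, tested at 2.81 after scaling by 0.473. For the control pull-down the lowest percentile was 7.53 fragments. By these low-end values the tet2/3 morpholino list was tested at a lower depth. The part of that lower depth in the results was not tested.

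The broad control peaks had a median width of 1755 bp, with 10% under 1540 bp and 10% over 2458 bp. Of the 2719, 754 reached 2000 bp, 94 reached 3000 bp, 15 reached 4000 bp and 3 reached 5000 bp. Their median fold was 7.38, with quartiles of 5.94 and 9.14, while control peaks of 300 to 600 bp had a median of 3.98, with quartiles of 3.16 and 5.09. The median summit held 73 fragments in broad peaks and 38 in the 113430 peaks of 300 to 600 bp. Width did not always come with height, and the lowest fold among the broad peaks was 2.31. The limit of 1500 bp cuts a continuous range of widths. The 8 peaks of exactly 1500 bp had a median of 52.8% of their bases covered after knockdown, with a range of 0 to 82.3%. For the 12 peaks of 1499 bp the median was 38.9%, with a range of 0 to 87.4%. A tet2/3 morpholino peak overlapped 6 of the 8 and 9 of the 12, so these few peaks show no step in overlap at the limit.

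Nearly all broad domains kept some 5hmC enrichment after tet2/3 knockdown. Of the 2719, 2520 (92.7%, 91.6 to 93.6) shared at least 1 bp with a tet2/3 morpholino peak, and 199 shared none. Among all control peaks the share was 30.6%. Among control peaks of 300 to 600 bp it was 27.6% (27.4 to 27.9), or 31338 of 113430. Broad peaks thus exceeded these narrow peaks by 65.1 points (64.0 to 66.0), and the difference was positive on 25 of 25 chromosomes, from 58.8 points on chromosome 8 to 70.9 on chromosome 25.

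A longer interval has more bases at which an overlap can fall, so 2 measures that do not count overlaps were set beside that share. The control summit lay inside a tet2/3 morpholino peak in 77.6% (76.0 to 79.1) of broad peaks and 24.1% (23.9 to 24.4) of narrow peaks, against 26.1% of all control peaks. Tet2/3 morpholino peaks covered 51.3% of the bases of broad peaks and 17.3% of the bases of narrow peaks. The broad peaks were higher by 53.5 points (51.9 to 55.0) for summits and by 34.0 points for bases, again on 25 of 25 chromosomes for both.

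About as many bases of the broad domains were lost from the peak list as stayed in it. Of their 5.19 Mb, 2.67 Mb lay in tet2/3 morpholino peaks. The median domain had 52.8% of its bases covered, with quartiles of 30.5% and 72.2%. At least 50% of the bases were covered in 1441 broad peaks, which is 53.0% (51.1 to 54.9) of them, against 17.5% of narrow peaks and 18.4% of all control peaks. Cover was complete in 6 broad peaks (0.221%), against 0.750% of narrow peaks and 0.753% of all control peaks. Complete cover takes a tet2/3 morpholino peak at least as wide as the control peak, and only 0.478% of that list reached 1500 bp. The shares with complete cover therefore do not compare retention. In broad domains that kept any peak, 55.0% of bases were covered. Narrow peaks that kept any were covered to 58.2%, but even the shortest tet2/3 morpholino interval, 132 bp, takes a large part of a narrow peak, so these values do not compare retention.

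**Figure D1:**
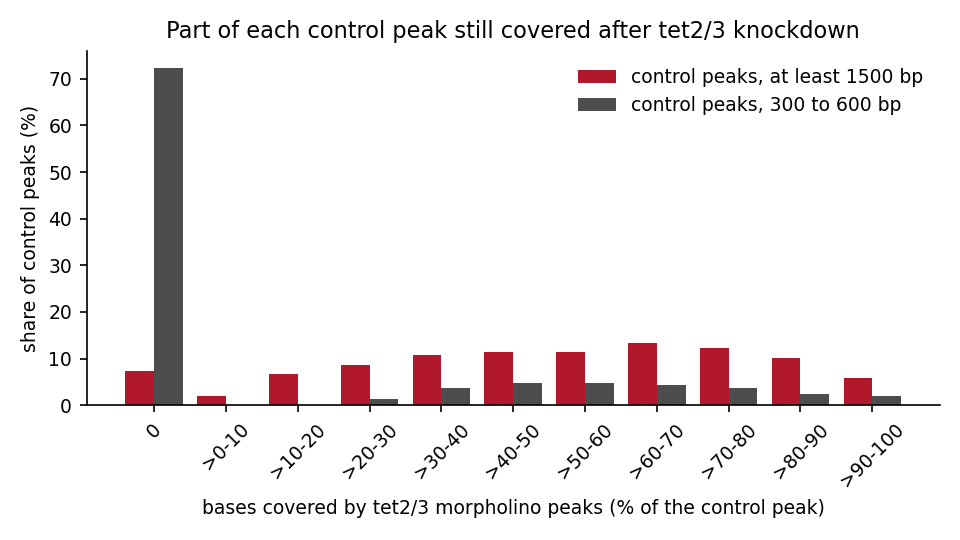
Share of control peaks (vertical axis, %) by the part of their bases that tet2/3 morpholino peaks cover (horizontal axis, %), for the 2719 control peaks of at least 1500 bp and the 113430 of 300 to 600 bp. No cover was seen in 7.32% of the broad and 72.4% of the narrow peaks, and the covered broad peaks spread over the whole range.

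Retention rose with width well beyond the 1500 bp limit. The overlapped share was 8.47% below 300 bp, 58.7% from 600 to under 1000 bp, 80.4% from 1000 to under 1500 bp, 90.7% (89.4 to 91.9) from 1500 to under 2000 bp and 97.4% (95.9 to 98.4) from 2000 to under 3000 bp. All 94 peaks of 3000 bp or more were overlapped (96.1 to 100.0). The covered share of bases was 48.3%, 55.5% and 62.3% in the 3 classes from 1500 bp up. Their median control folds were 7.15, 7.88 and 8.77, and their shares within 2 Mb of a chromosome end were 17.5%, 21.7% and 23.4%.

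**Figure D2:**
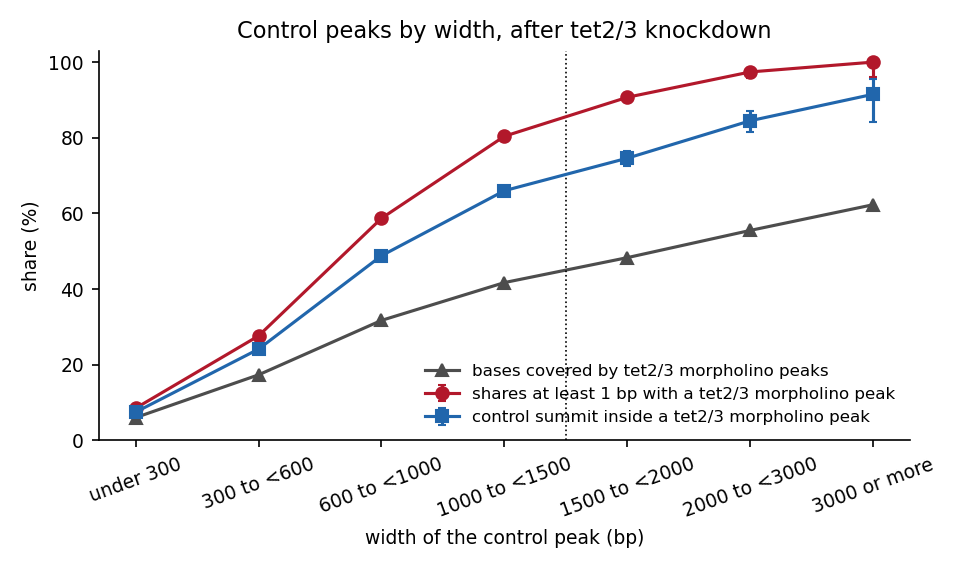
Control peaks in 7 classes of width (horizontal axis, bp), with the share that shares at least 1 bp with a tet2/3 morpholino peak, the share whose summit lies inside one and the share of bases covered (vertical axis, %). Bars are 95% Wilson intervals and the dotted line marks 1500 bp; every measure rises with width, and bases covered reach 62.3% in the widest class.

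Fold and width go together, so broad and narrow peaks were also compared within classes of control fold. Fold is a ratio to the local background, so the number of fragments at the summit was not matched. Nor was fold equal within a class. Below a fold of 4, narrow peaks reached down to 1.43 and broad peaks to 2.31. Broad peaks were overlapped more often in each of the 7 fold classes. Below a fold of 4, 66 of 96 broad peaks were overlapped (68.8%, 58.9 to 77.1) and 15.8% of 58183 narrow peaks, a difference of 52.9 points (43.1 to 61.3). At a fold of 6 to 8 the shares were 92.2% and 55.1%, and at 12 or more 99.4% and 88.5%. For summits inside a tet2/3 morpholino peak the difference was smaller in each class, and all 7 of its intervals lay above 0. It was 31.4 points (21.9 to 41.3) below a fold of 4, 24.2 points (21.2 to 27.0) at 6 to 8 and 9.94 points (4.86 to 14.9) at 12 or more. With the outer 2 Mb of each chromosome left out, 57.4% of broad and 13.9% of narrow peaks were overlapped below a fold of 4, and 90.6% and 53.2% at 6 to 8.

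**Figure D3:**
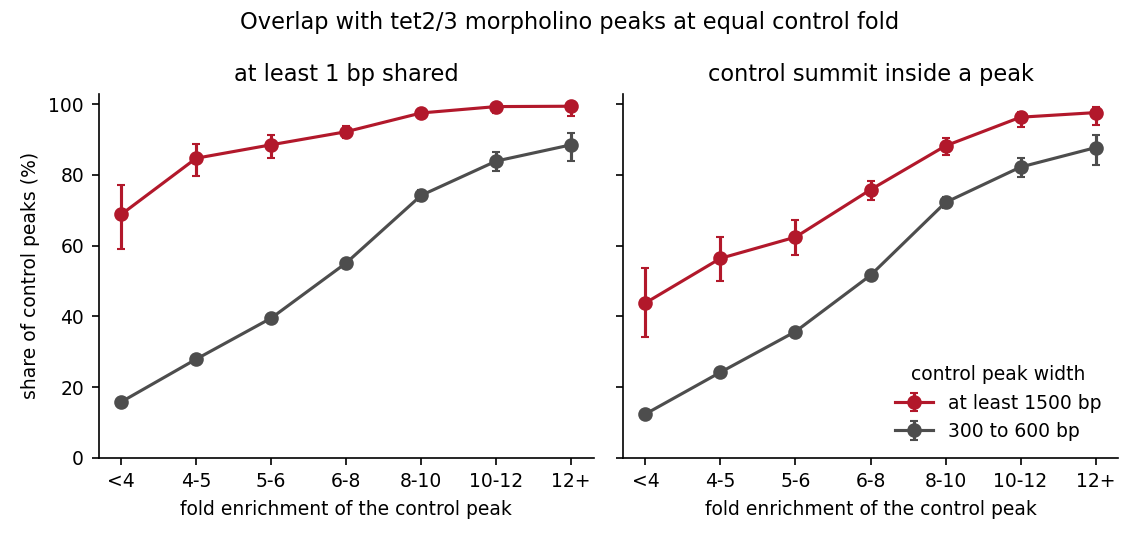
Share of control peaks (vertical axis, %) that share at least 1 bp with a tet2/3 morpholino peak (left) or have their summit inside one (right), by the control fold (horizontal axis), for peaks of at least 1500 bp and of 300 to 600 bp. Bars are 95% Wilson intervals; broad peaks lie above narrow peaks in all 7 classes, by 31.4 points for summits below a fold of 4 and 9.94 points at 12 or more.

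Many broad domains were left in pieces. After knockdown 1341 domains (49.3%) held 1 tet2/3 morpholino peak, 916 (33.7%) held 2, 214 held 3, 41 held 4, 7 held 5 and 1 held 6. In all, 1179 domains (43.4%, 41.5 to 45.2) met 2 or more, against 1.68% of all control peaks and 0.148% of narrow peaks, which have little room for 2. The number per length was alike, with 0.775 tet2/3 morpholino peaks per kb in broad peaks and 0.661 in narrow peaks. Domains with more pieces were wider, from a median of 1699 bp with 1 piece to 2622 bp with 4. Their cover was 51.9% with 1, 57.6% with 2, 59.0% with 3 and 61.5% with 4. It was 58.1% in the 7 domains with 5 pieces and 64.2% in the 1 with 6. The 1500 gaps between neighbouring pieces had a median of 229 bp, with quartiles of 145 and 423 bp. Of these gaps, 48.9% were shorter than 222 bp, the shortest control interval. When pieces closer than that were joined, the share with 2 or more fell to 25.4%, an alternative chosen after seeing the data. With only peaks at a −log10 q of 5 or more kept in both lists, it was 18.7%.

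The pieces were wider than other peaks of the tet2/3 morpholino list. The 4017 tet2/3 morpholino peaks that touched a broad domain were 4.99% of that list, close to the 4.76% of control peak bases that broad domains hold. Per kb, broad domains met 0.775 tet2/3 morpholino peaks and all control peaks 0.676. Pieces had a median width of 533 bp and the other tet2/3 morpholino peaks 279 bp. Pieces were picked for touching a wide control interval, and a longer peak touches one more readily. Some of this difference in width therefore comes with the choice. The median fold of the pieces was 4.65, against 4.09 for the other peaks. In 88.9% of cases the piece lay wholly inside the domain. A piece of 1500 bp or more was left in 293 domains, 10.8% of them. The summit of the highest piece lay a median of 197 bp from the control summit, within 200 bp in 50.5% of the overlapped domains.

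Cover fell towards the edges of the domains. The middle 20% of the broad peaks' length was covered to 60.2%, the first 20% to 38.9% and the last 20% to 39.6%. In narrow peaks these values were 25.8%, 9.24% and 9.41%, so cover fell towards the edges there too. The edges are those of the control list, and the part of that in the fall was not tested. Along 20 equal bins of the broad peaks, cover was 17.7% in bin 1, 35.6% in bin 2, 47.9% in bin 3 and 54.4% in bin 4. It then stayed between 58.6% and 61.0% in bins 6 to 15, a plateau, and came down in the same way to 17.8% in bin 20. Cover in the 1500 bp on either side was 6.33% for broad and 2.57% for narrow peaks, while over whole chromosomes it was 2.13%. At a distance of 10 kb it was higher than in these flanks, at 9.22% and 3.42%. Control peaks covered 15.4% of the flanks of broad peaks and 8.26% of those of narrow peaks, against 8.10% of whole chromosomes. Around the control summit, 76.0% of bases within 100 bp were covered, and 48.5% of the rest of the domain. The summit itself lay in the first or last 20% of the length in 32.4% of broad peaks and 3.40% of narrow peaks. When each tet2/3 morpholino peak was lengthened by 45 bp at both ends to allow for the difference in shortest interval, cover of the broad peaks was 57.8%.

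**Figure D4:**
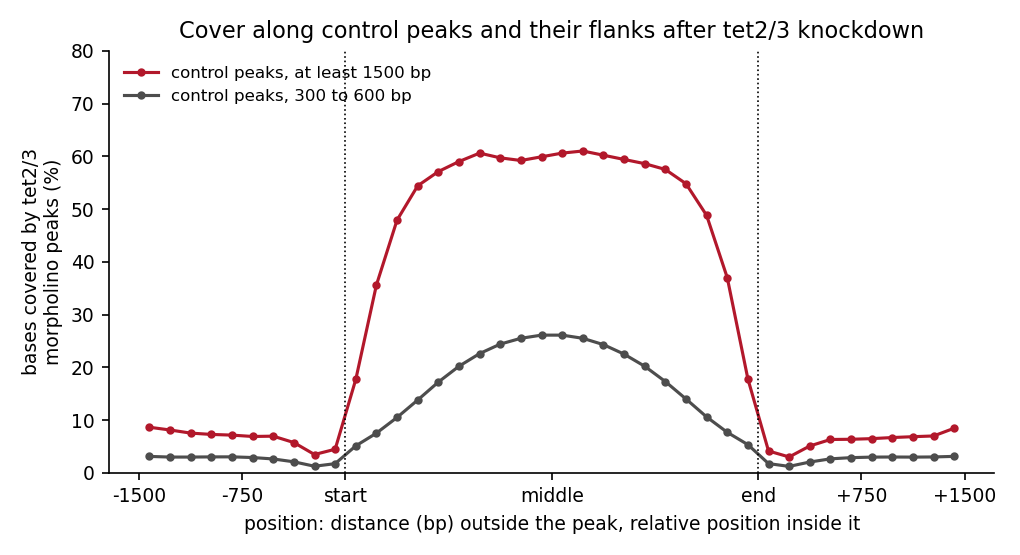
Bases covered by tet2/3 morpholino peaks (vertical axis, %) along control peaks scaled to 1 length in 20 bins and along 1500 bp of flank in bins of 150 bp (horizontal axis), for peaks of at least 1500 bp and of 300 to 600 bp. Broad peaks show a flat middle near 60% and edges of 17.7% and 17.8%, above flanks of 6.33%.

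Summit enrichment in the domains was lower after knockdown in most of those where it could be measured. For the 2520 overlapped domains the pileup at the highest tet2/3 morpholino summit was a median of 6.73 times its background, with quartiles of 5.20 and 8.71. The control summit of the same domains was 8.31 times its background, with quartiles of 6.62 and 10.2. The ratio of tet2/3 morpholino to control enrichment had a median of 0.819, with quartiles of 0.615 and 1.08, and it was above 1 in 812 domains (32.2%). In overlapped narrow peaks the ratio was 0.958, with quartiles of 0.712 and 1.27. These ratios hold only for peaks that were called in both lists, and domains left with no peak had a lower control enrichment, at a median of 6.24. They cover 92.7% of broad but 27.6% of narrow peaks, so 0.819 and 0.958 do not compare the loss in the 2 sets. Broad peaks were chosen by control width, which goes with control fold. A ratio below 1 may come in part with that choice, which was not tested.

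The 9371 bp interval at chromosome 4:6499075-6508445 was the longest domain. Its summit held 142 fragments, a fold of 16.1. After knockdown 46.1% of it was covered, by 5 peaks of 538, 309, 514, 2500 and 459 bp. The largest of these, with a fold of 12.3, held the control summit, and the gaps before it were 1579, 1112 and 1403 bp. The second longest, at chromosome 9:8447399-8452781, spanned 5383 bp with a fold of 6.00 and kept 67.2% in 4 peaks, the highest with a fold of 6.83.

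The third longest, at chromosome 25:2402405-2407604, spanned 5200 bp and was split most, into 6 peaks that covered 64.2%. Its pieces were 217, 136, 333, 1282, 645 and 723 bp long, with folds of 3.74, 2.76, 3.68, 5.98, 7.12 and 13.8 along the domain, so the highest piece lay at the end that held the control summit. The fourth, at chromosome 4:17048885-17053731, kept 67.6% of 4847 bp in 5 peaks. The next, at chromosome 6:11831921-11836670, kept 65.0% of 4750 bp in 3 peaks. Of the 7 domains with 5 pieces, the next longest were those at chromosome 13:5505894-5510284, covered to 61.7%, and chromosome 23:152241-155119, covered to 67.5%.

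Of the 5 broad peaks of highest fold, 4 stayed covered over nearly their whole length. At chromosome 7:74041765-74044735 the control fold was 23.2 from 197 fragments, and 92.9% of 2971 bp was covered, mostly by a single peak of 3440 bp. A second domain lay 8.55 kb away at chromosome 7:74053290-74056211, and 1 peak covered 92.7% of it (control fold 18.9). At chromosome 13:604012-607685 the fold was 19.8, and 1 peak of 3509 bp covered 95.5%. At chromosome 12:8671049-8673028 the fold was 19.3, and 1 peak covered 96.0%. The domain at chromosome 22:21057725-21059767, with a fold of 19.5, was covered to 68.8% by 1 peak. In the pair on chromosome 7 the highest tet2/3 morpholino folds were 6.64 and 10.1. They were 9.20 on chromosome 13, 16.8 on chromosome 12 and 14.0 on chromosome 22. All were below the control folds, though folds of the lists are not on the same scale. These domains were chosen by control fold, and the part of that choice in the lower values was not tested. The pair on chromosome 7 and the domain on chromosome 13 lay within 1 Mb of a chromosome end.

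The 3 longest domains with complete cover all lay close to a chromosome end. They were at chromosome 14:26716-29024, with a control fold of 8.49, chromosome 10:52622-54579, with 4.45, and chromosome 1:70867-72596, with 3.61. The tet2/3 morpholino peaks over them were 2780, 2509 and 1779 bp long and ran past both edges of the domain.

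The 199 domains with no peak left were narrower and weaker than the rest. Their median width was 1638 bp and their median fold 5.71, while overlapped domains had 1770.5 bp and 7.57. They occurred on 25 chromosomes, and the widest spanned 2922 bp. A tet2/3 morpholino peak lay within 5 kb of 119 of them and within 500 bp of 10. Yet 19 had a control fold of 8 or more. The strongest, at chromosome 11:31381562-31383106, reached 12.2 with 104 summit fragments. It was followed by chromosome 25:8733060-8734845 at 11.5, chromosome 12:42774199-42775890 at 10.5, chromosome 15:33131626-33133255 at 9.96 and chromosome 10:28815434-28816959 at 9.85. The nearest tet2/3 morpholino peak was 1549, 63967, 1835, 1626 and 3356 bp away from them in that order, so the domain on chromosome 25 lay by far the most distant from one.

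Broad domains were unevenly spread over the chromosomes. Their density was 2.03 ± 0.587 per Mb (SD, 25 chromosomes), from 1.11 on chromosome 4 and 1.12 on chromosome 8 to 3.30 on chromosome 13 and 3.58 on chromosome 7. Chromosome 7 alone held 266 of them, and 83 of these lay in 2 windows of 1 Mb. Without those windows its density was 2.53 per Mb. As a share of control peaks, broad peaks ranged from 0.701% on chromosome 8 to 2.03% on chromosome 7. On chromosome 4 this share was 1.09%, near the mean of 1.18%. Chromosome 4 was also lowest in narrow peaks, at 51.8 per Mb against a mean of 85.5, while chromosome 8 had 81.9. Retention varied less, with 92.6 ± 3.13% of domains overlapped, from 85.7% on chromosome 9 to 98.4% on chromosome 25. Covered bases were 51.5 ± 3.98%, from 44.4% on chromosome 15 to 58.2% on chromosome 18.

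**Figure D5:**
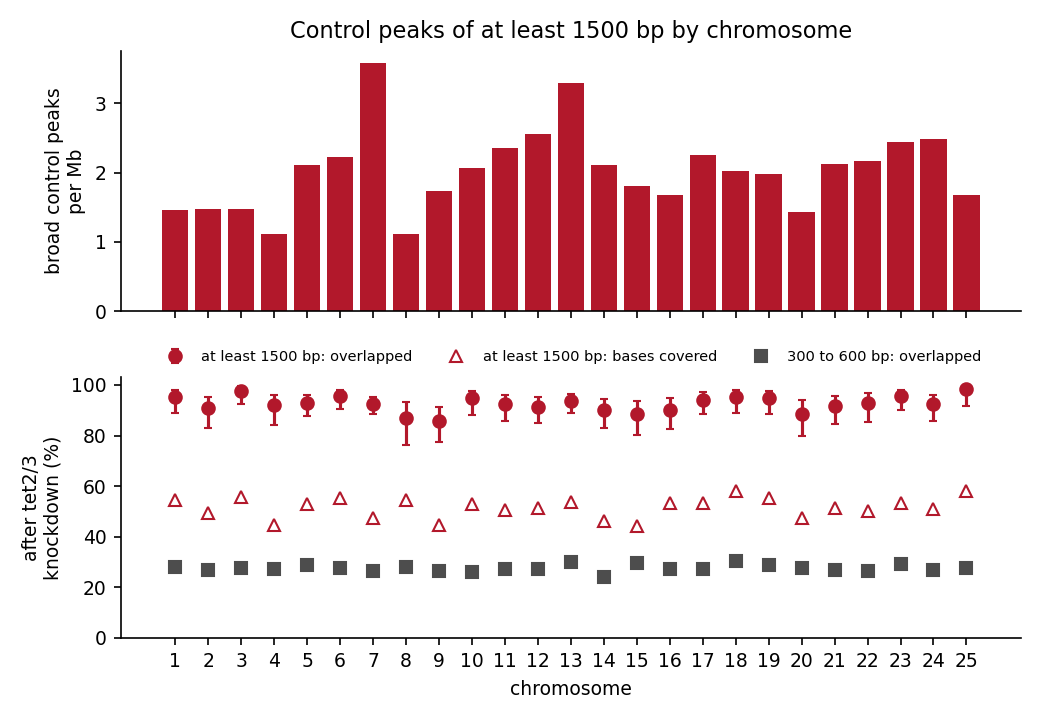
Upper panel: control peaks of at least 1500 bp per Mb on each chromosome. Lower panel: share of them overlapped by a tet2/3 morpholino peak with 95% Wilson intervals, share of their bases covered, and overlapped share of control peaks of 300 to 600 bp (%); density is highest on chromosome 7, at 3.58 per Mb, while the shares vary little between chromosomes.

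The domains were also clustered along the chromosomes. Another broad peak lay within 10 kb of 30.1% (28.4 to 31.8) of them, while a broad peak lay within 10 kb of 6.20% (6.06 to 6.35) of narrow peaks. The median distance to the nearest broad peak was 30.2 kb from a broad peak and 242.8 kb from a narrow peak. Within 100 kb the shares were 71.3% and 31.3%. Broad peaks also had more control peaks of any width around them, at a median of 33 within 50 kb against 22 for narrow peaks. Tet2/3 morpholino peaks within 50 kb numbered a median of 17 and 7.

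Joined at a distance of up to 10 kb, 818 domains formed 314 groups, of which 110 had 3 or more members, and 1901 domains stood alone. In 1 Mb windows, 569 of 1361 held no domain, while the 136 richest held 48.5% of all domains. No window was without a narrow peak, and the 136 windows richest in narrow peaks held 17.4% of those. The richest window, on chromosome 7 from 46 to 47 Mb, held 51 domains, of which 47 were overlapped and 45.6% of their bases covered. The window from 68 to 69 Mb on the same chromosome held 32, with 27 overlapped and 39.0% of bases covered. Next came chromosome 1 from 39 to 40 Mb with 21 domains, and then chromosome 12 from 42 to 43 Mb and chromosome 16 from 0 to 1 Mb with 20 each. In the window on chromosome 16, all 20 were overlapped and 71.2% of bases were covered. The windows named here were also rich in control peaks of any width, with 265 to 435 each, against 168.5 per Mb over the chromosomes.

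The largest group had 13 domains over 87187 bp at chromosome 23:22787313-22874499. All 13 were overlapped, by 19 tet2/3 morpholino peaks, and 69.0% of their bases were covered. The second had 8 domains at chromosome 16:76767-104610, all of them overlapped, with 84.0% of bases covered. The third had 7 at chromosome 21:23169649-23206298, all overlapped, with 47.3% covered. Grouped domains as a whole had somewhat more cover than single ones, at 54.8% against 49.8% of bases, and were overlapped in 95.5% (93.8 to 96.7) against 91.5% (90.1 to 92.7). Their median control fold was higher too, at 7.87 against 7.26, and its part in the difference was not tested.

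A larger share of broad domains than of narrow peaks lay near chromosome ends, and both broad and narrow peaks kept more there. Of the 2719, 508 (18.7%) lay within 2 Mb of an end, against 10.2% of narrow peaks. The difference of 8.52 points (7.09 to 10.0) was positive on 25 of 25 chromosomes, from 1.15 points on chromosome 2 to 25.7 on chromosome 16. Most broad domains still lay in the interior. Their median distance to an end was 14.3 Mb, against 12.8 Mb for narrow peaks. Near the ends 501 of 508 were overlapped (98.6%, 97.2 to 99.3) and 68.5% of bases were covered. In the interior 2019 of 2211 were overlapped (91.3%, 90.1 to 92.4) and 47.3% of bases were covered. Near the ends 5303 of 11529 narrow peaks were overlapped, with 30.3% of bases covered, and in the interior 26035 of 101901 (25.5%), with 15.8% covered. The median control fold of the broad domains was 7.38 in both places. Below a fold of 6, cover was 59.2% near the ends and 34.8% in the interior, and at 8 or more it was 74.4% and 57.3%. Only 7 of the 199 domains with no peak left lay near an end.

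The overlap was also read from the other list. The tet2/3 morpholino list held 385 peaks of at least 1500 bp, 0.478% of its peaks. Every one of the 385 met a control peak, and control peaks covered 93.1% of their bases. Tet2/3 morpholino peaks of 300 to 600 bp met a control peak in 97.0% of cases and were covered to 93.0%, and all tet2/3 morpholino peaks in 90.6% and to 89.9%, so the cover of the broad ones was near that of any width. Of the 385, 290 (75.3%) met a broad control peak. A tet2/3 morpholino peak of this width met 2 or more control peaks in 26.2% of cases, while a control peak of this width met 2 or more tet2/3 morpholino peaks in 43.4%. Since each set was chosen by width in its own list, some narrowing in the other list comes with the choice. The contrast between 51.3% cover of the broad control peaks and 93.1% cover of the broad tet2/3 morpholino peaks cannot be told apart from the different lengths and depths of the lists.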

How the data were processed

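Peak lists of 2 pull-downs were used, and the inputs entered only through the authors' calling. The submitters' processing notes name Bowtie2 2.2.6, MACS2 2.2.7.1, deepTools and the builds GRCz11 and danRer11; what settings or pooling were used is not given there. Each list had its own run name, and lists were assigned by sample record. In the deposited lists the score equals 10 times the −log10 q-value without its decimals. Fold enrichment (a summit ratio), −log10 p-values and −log10 q-values were also deposited by the authors. Positions are 1-based, in the files' build.

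Rows on chromosomes 1 to 25 were used (Python 3.11.15, pandas 2.3.3, numpy 2.4.6, scipy 1.17.1, bedtools 2.31.1). Broad means end minus start of at least 1500 bp; overlap means at least 1 bp. A chromosome's length is its last peak end. Background was solved from fold and p-value, and 100% of peaks were solved. In each list 99.6% or more of pileups were whole fragments within 0.05. The scale of each list and the solution for each peak were picked to bring pileups close to whole fragments. That share is therefore no independent check. Scripts were tested on simulated data. The members, width classes and measures were chosen with earlier results of these data known. Named domains were the 5 longest, the 5 of highest fold, the 5 of highest fold with no overlap, the 5 with most pieces (ties by length), the 3 with most cover and the 3 largest groups. No GRCz11 annotation or genome was used, so domains carry no gene names or sequence.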

Additional observations from a re-analysis of the deposited data

Results flagged for a closer look

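Control peaks of at least 1500 bp also occurred outside the 25 chromosomes, in data that the comparisons leave out. Unplaced scaffolds held 52 of them among 4012 control peaks, or 1.30%, close to the 1.20% on the chromosomes. They lay on 50 scaffolds, had a median fold of 7.16 and a longest interval of 3896 bp. Of the 52, 50 were overlapped by a tet2/3 morpholino peak (96.2%, 87.0 to 98.9), and 64.6% of their bases were covered. The same shares are not given for the other control peaks on scaffolds. Whether these values belong to the broad peaks or to scaffolds in general therefore cannot be told.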

How the results depend on the processing

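Of the 40 recomputed values, 11 stayed within the counting interval of the main value. For cover that interval (51.3 to 51.4) counted every base as independent, so it is too narrow to judge a shift. Most of the values are shares, which cannot change sign. Only the broad minus narrow difference in overlap could have done so, and it stayed positive throughout. With only peaks at a −log10 q of 5 or more kept, overlap was 74.7% of broad and 13.7% of narrow peaks (60.9 points), cover 42.2% and domains with 2 or more pieces 18.7%. The cause of these shifts was not tested. Without 2 Mb at each end these were 91.3% and 25.5%, 47.3% and 40.1%. From 1000 bp, overlap was 83.1% (55.5 points), cover 44.8% and 2 or more pieces 21.3%; from 2000 bp they were 97.7% (70.1 points), 56.8% and 63.8%. Counting a peak as shared with 50% of it covered gave 53.0% and 17.5% (35.5 points), and with its summit covered 77.6% and 24.1% (53.5 points). Cover was 51.6% with scaffolds, 57.8% with lengthened peaks and, in alternatives chosen after seeing the data, 53.5% with close pieces joined and 51.8% without chromosome 7. Joining close pieces left 25.4% of domains with 2 or more. Groups within 50 kb held 58.9% of domains, and without chromosome 7 groups within 10 kb held 28.9%. No paired analysis was possible because a group holds a single pull-down.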

Other observations

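Some broad tet2/3 morpholino peaks had no broad counterpart in control embryos. There were 95, and 73 of them (76.8%) shared at least 1 bp with each of 2 or more separate control peaks. Of the 95, 55 (57.9%) lay within 2 Mb of a chromosome end, against 43.4% of all 385 broad tet2/3 morpholino peaks and 18.4% of the whole tet2/3 morpholino list. The longest peak of the whole tet2/3 morpholino list was not among these 95, as it overlapped a broad control peak. It lay at chromosome 14:21696-25481 and spanned 3786 bp with a fold of 7.91. These values were looked at after the results above were known.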
